A study of Homo sapiens with 4 samples.

Results

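The genes described here are the translation factors and aminoacyl-tRNA synthetases to which a region occupied by OGA was assigned in naive human embryonic stem cells. They were taken by symbol from both deposited lists: names that start with EIF or EEF and a digit, names of a single letter followed by ARS1 or ARS2, and EPRS1, without pseudogenes. The rule found 44 genes among 6757 gene names in the lists. By symbol, 20 are EIF genes, called initiation here, 5 are EEF genes, called elongation, and 19 are synthetases. These names follow the letters only: EIF5A and EIF4A3, whose roles are given below, count as initiation. All 44 had a region in the control list, 8 also had a region in the OGA knockdown list, and 0 were listed in the knockdown alone. Over all protein-coding genes, 801 had a knockdown region and 657 of these also had a control region. Most coding genes with a knockdown region were thus also listed in control.

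OGA (O-GlcNAcase) takes the sugar O-GlcNAc off proteins of the nucleus and cytosol, and its position on chromatin was profiled by CUT&Tag, in which an antibody directs a transposase that cuts and tags nearby DNA. The cells were H9, an established human embryonic stem cell line, grown in the naive state in PXGL medium (LIF plus inhibitors that block tankyrase, MEK and PKC) on a mouse embryonic fibroblast layer. Control cells were of genotype WT, the other group carried an OGA knockdown (shOGA), both had the treatment "none", and each group had 2 libraries. The labels do not say whether the replicates were separate cultures, how the knockdown was induced or how far OGA fell.

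The data were 1 list of regions per group, with 8977 distinct regions for control and 1334 for the knockdown. Each region merged at least 1 peak of each replicate, and carried a position, a width and the gene with the nearest start site, but no count, signal or score. Library depth was therefore unknown, a region missing from a list is not a region at 0, and no difference between groups could be tested over replicates. Intervals below are Wilson 95% intervals over genes or regions and cover counting error only. Fewer cells with OGA at a site and less OGA per cell cannot be told apart in these bulk libraries. Among naive and general stem cell markers, POU5F1, SOX2, SALL4, LIN28A, DPPA3 and DPPA5 had control promoter regions; KLF17 had 0 regions and SUSD2 had 3, of which 0 were at its promoter. Among fibroblast marker genes, SPARC had 2 promoter regions and COL1A1, VIM and THY1 had 0 regions. The feeder layer was mouse and the regions are positions on the human genome, so these genes do not measure feeder cells.

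Protein synthesis begins when initiation factors load the methionyl initiator tRNA and the small ribosomal subunit onto a capped mRNA. eIF2 carries the initiator tRNA, the eIF3 complex scaffolds the small subunit, and the eIF4 factors bind the cap and unwind the leader. Elongation factors then deliver aminoacyl-tRNAs and move the ribosome, and the synthetases charge each tRNA with its amino acid. In human nomenclature, synthetase symbols ending in 1 name cytosolic enzymes, some of which also act in mitochondria, and those ending in 2 name mitochondrial enzymes.

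In control cells, 37 of the 105 protein-coding genes that the rule takes in RefSeq had a promoter region, meaning a region annotated within 3 kb of a start site (35.2%, interval 26.8 to 44.7). The background over all protein-coding genes was 14.9%. With a region of any class, the count was 44 of 105 (41.9%, 32.9 to 51.5), beside a background of 21.7%. Synthetases had the highest share with a promoter region, 17 of 35 (48.6%, 33.0 to 64.4). Elongation genes followed with 5 of 14 (35.7%, 16.3 to 61.2), and initiation genes with 15 of 56 (26.8%, 17.0 to 39.6). The 3 intervals overlapped, which does not decide whether the shares differ, and differences between roles were not tested. Mitochondrial synthetases, with 9 of 17 (52.9%, 31.0 to 73.8), and synthetases ending in 1, with 8 of 18 (44.4%, 24.6 to 66.3), also had overlapping intervals.

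**Figure D1:**
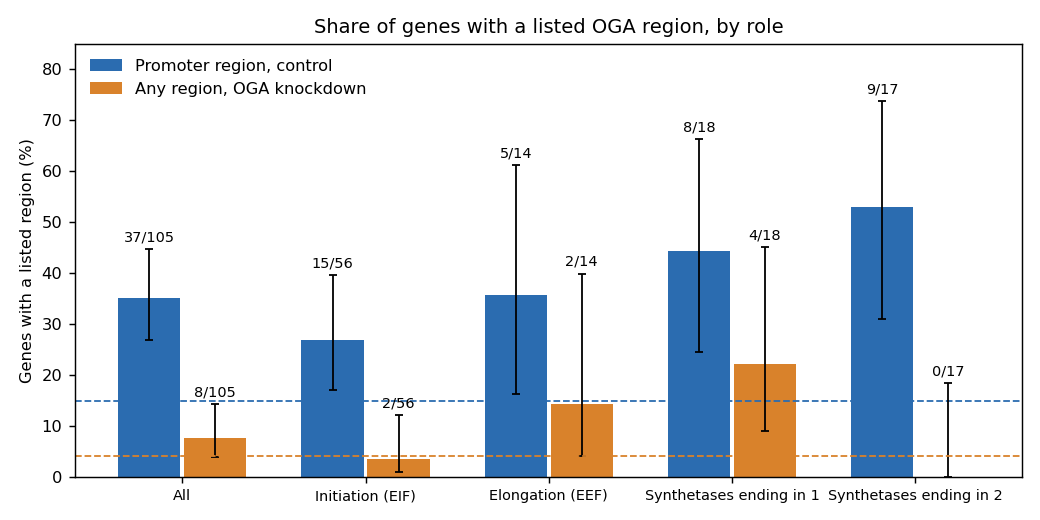
Share of coding genes with a promoter region in control (blue) and with any region in the OGA knockdown (orange), in percent, for all genes of the rule and by role; bars carry counts and Wilson 95% intervals, and dashed lines mark 14.9% and 3.99%, the shares over all protein-coding genes. Mitochondrial synthetases have the tallest control bar, 9 of 17, and 0 of 17 in the knockdown.

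Initiation genes fall in small subgroups, and the background for any control region was 21.7%. The interval held it for eIF2-related genes (3.01 to 56.4%), EIF2B genes (0 to 43.4%), eIF2 kinases (4.56 to 69.9%) and eIF3 genes (11.7 to 54.6%). It also did for the eIF5, eIF5A, eIF5B and eIF6 group (3.01 to 56.4%). It lay above for eIF1 and eIF1A genes (23.1 to 88.2%), eIF4 factors (32.0 to 80.7%) and eIF4E-binding proteins (30.1 to 95.4%). Differences between subgroups were not tested. EIF1, which guards start-codon selection, had a region of 1881 bp over its start at chr17:41688001-41689881. EIF1AX and EIF1B had regions only away from their promoters, the EIF1AX region being 1494 bp wide inside intron 14 of 20 of RPS6KA3. Of 6 eIF2-related genes only EIF2S2, the beta subunit of eIF2, was listed, with a promoter region of 1397 bp and another of 1600 bp located 25306 bp past the start. None of the 5 EIF2B genes, which encode the nucleotide exchange factor of eIF2, had a region. Of the 4 eIF2 kinases only EIF2AK3 (PERK, the kinase of the unfolded protein response) had a region, 1405 bp over the start.

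The eIF3 complex had promoter regions at EIF3B, EIF3D, EIF3G and EIF3K, 4 of 14 genes. Their widths were 1361, 2676, 1599 and 1647 bp, and the EIF3D region at chr22:36527892-36530567 was the widest of the 4. The remaining eIF3 genes (EIF3A, C, CL, E, F, H, I, J, L and M) had no region. Of the 12 genes of cap-binding, helicase and scaffold eIF4 factors, 7 had any region and 5 a promoter region. EIF4B, a cofactor of the eIF4A helicase, had the widest promoter region among initiation genes, 3448 bp at chr12:53003887-53007334, of which 2569 bp lay upstream of the start. EIF4E, the cap-binding protein, had 1906 bp, EIF4E3 2017 bp, EIF4A1 1044 bp and EIF4G2 1260 bp. EIF4A3, an exon-junction helicase, had a region of 3193 bp that ended 3147 bp upstream of its start and so fell just outside the promoter class. EIF4A2, EIF4E1B, EIF4E2, EIF4G1 and EIF4G3 had no region.

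Proteins that hold eIF4E in check were also represented. EIF4EBP2 had a promoter region of 1567 bp that began 921 bp past the start, and EIF4ENIF1, the nuclear import carrier of eIF4E, had 822 bp ending 337 bp before it. EIF4EBP1 had a region of 1863 bp located 35370 bp past its start, and EIF4EBP3 had none. EIF5A, whose hypusine-bearing product helps ribosomes past difficult peptide bonds, was the only listed gene among 6 of the eIF5, eIF5A, eIF5B and eIF6 group, with 1056 bp at chr17:7306613-7307668.

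Elongation genes were few but held the widest region of the set. EEF1A1 encodes the factor that brings aminoacyl-tRNA to the ribosome, and EEF1G a subunit of its exchange complex, with a promoter region of 1656 bp. EEF2, the translocase, had a region of 1735 bp that ended 151 bp upstream of the start. EEF2K, the kinase that inhibits eEF2, had a region of 1262 bp that began 378 bp past its start, and another of 1013 bp that ended 2316 bp before a further start within the gene. EEF1AKMT3, a lysine methyltransferase of eEF1A, had 1180 bp. EEF1A2, EEF1B2, EEF1D, EEF1E1 and the other methyltransferases had no region.

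Promoter regions of synthetases ranged from 533 bp at CARS1 to 4375 bp at YARS2, the mitochondrial tyrosine enzyme (chr12:32753754-32758128). Among enzymes ending in 1, WARS1 had 3466 bp, QARS1 regions of 2596 and 2663 bp, SARS1 2644 bp, AARS1 2349 bp, LARS1 1928 bp and GARS1 1240 bp. KARS1 had a single region of 1623 bp, annotated to a 5' UTR 5955 bp past its start. Among the mitochondrial enzymes after YARS2, PARS2 had 3077 bp, WARS2 2597 bp, EARS2 2181 bp, AARS2 1556 bp, NARS2 1471 bp, LARS2 1077 bp, CARS2 regions of 1433 and 975 bp, and TARS2 614 bp. FARS2 had only a region in intron 1 of 6, 32637 bp past the start. Synthetases without an assigned region included EPRS1, HARS1, HARS2, IARS1, IARS2, MARS1, MARS2, NARS1, RARS1, RARS2, SARS2, TARS1, VARS1, VARS2 and YARS1. Among genes of the rule, cytosolic and mitochondrial enzymes for the same amino acid were both listed for alanine, cysteine, leucine and tryptophan.

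**Figure D2:**
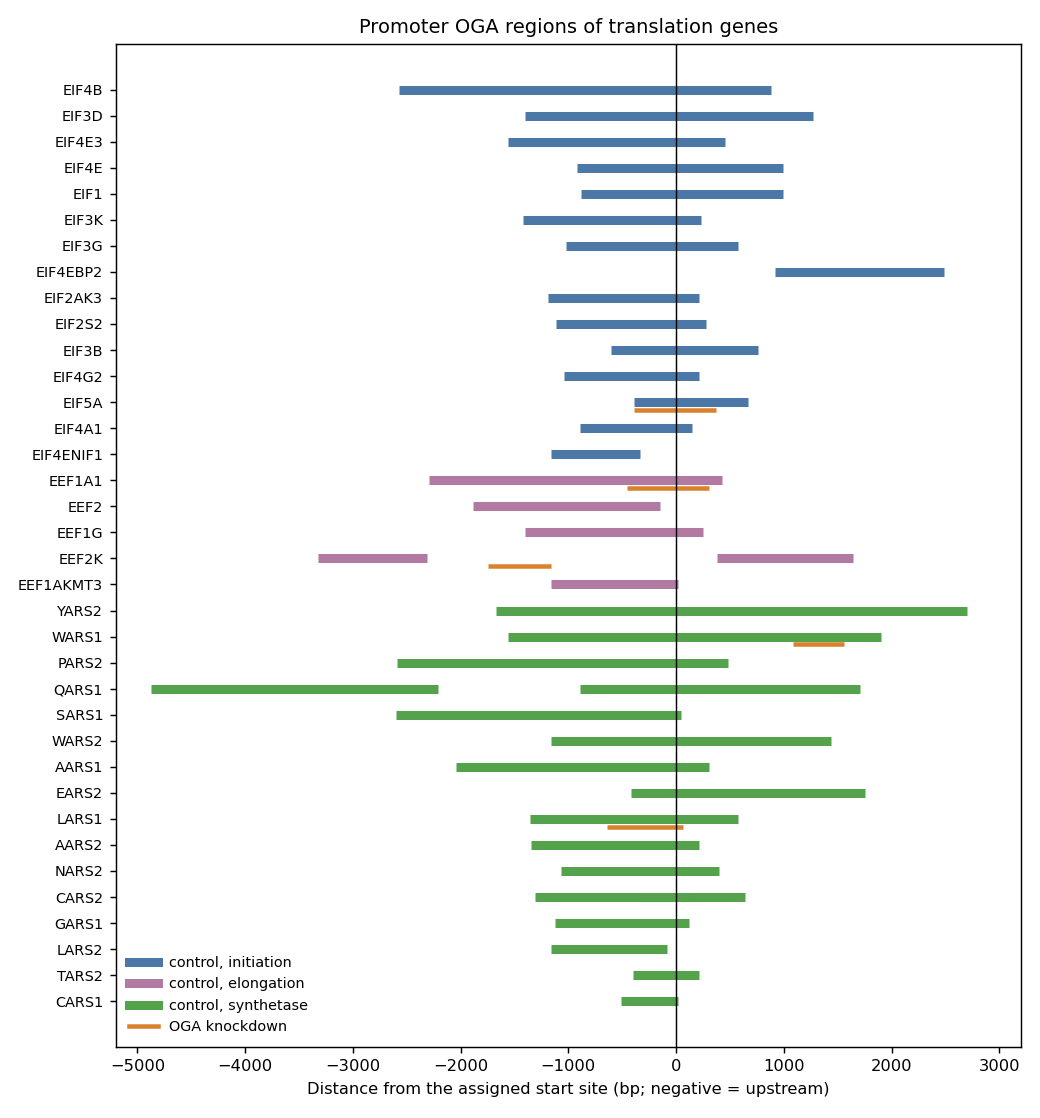
Extent of the promoter regions of the genes named in the text around the start each region was assigned to (bp, negative upstream; the regions of EEF2K, CARS2 and WARS1 belong to different starts of the gene), coloured by role, with knockdown regions in orange below the control region of the same gene. Most control bars cross the start and reach further upstream than downstream; the 5 knockdown bars lie at EIF5A, EEF1A1, EEF2K, WARS1 and LARS1, and that of EEF2K overlaps neither control region.

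The 60 control regions of these genes lay at promoters in 40 cases (66.7%, 54.1 to 77.3), against 46.9% of the whole list. A further 11 were distal intergenic, 4 intronic, 2 in a 3' UTR, and 1 each in a 5' UTR, an exon and a downstream flank. Of the 20 regions outside promoters, 15 were at least 10 kb from the start. A start site lay inside 33 of the 60 regions (55.0%, 42.5 to 66.9), compared with 28.5% over the whole list. Those 33 covered a median of 1157 bp upstream and 457 bp downstream of the start, and 23 reached further upstream; in the whole list the medians were 887 and 626 bp.

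Widths in control were close to those of the whole list. The median was 1681 bp (quartiles 1262 and 2475 bp), next to 1577 bp over all control regions. Initiation regions had a median of 1599 bp over 23 regions, synthetase regions 1817 bp over 26 and elongation regions 2116 bp over 11, of which 6 belong to EEF1A1. Regions of the synthetases ending in 1 had a median of 2257 bp and those of the mitochondrial enzymes 1452 bp.

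**Figure D3:**
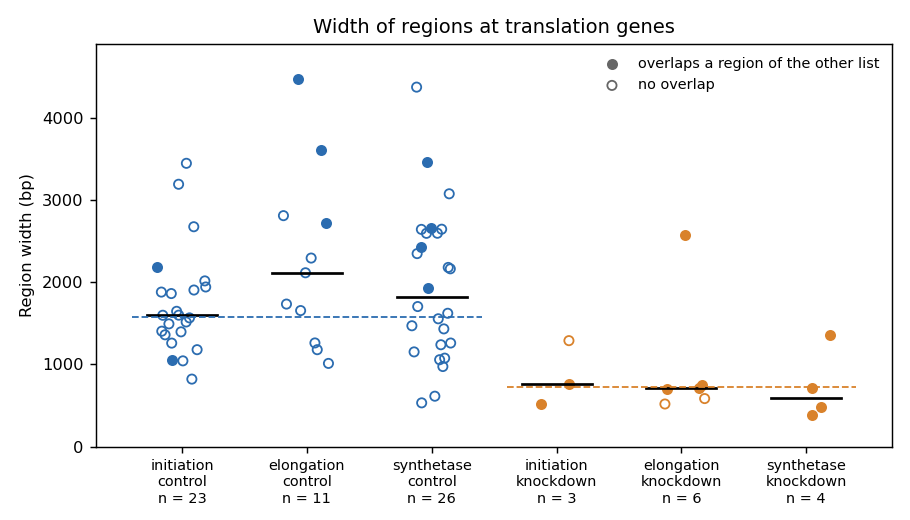
Width of each region (bp) by role and list; filled points overlap a region of the other list by at least 1 bp, open points do not, black bars are group medians and dashed lines the whole-list medians of 1577 bp (control) and 727 bp (OGA knockdown). The 9 filled control points include the widest of the elongation regions, and most knockdown points lie below 1000 bp.

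In the OGA knockdown list, 8 of the 105 coding genes had any region (7.62%, 3.91 to 14.3; background 3.99%) and 5 had a promoter region (4.76%, 2.05 to 10.7; background 2.05%). The 8 genes were EEF1A1, EEF2K, EIF4H, EIF5A, LARS1, QARS1, SARS1 and WARS1. They made up 18.2% of the 44 genes listed in control (9.51 to 32.0), beside 15.1% of all coding genes with a control region, so the share that was also in the knockdown list was near the background. By symbol group the counts were 2 of 5 elongation genes (interval 11.8 to 76.9%), 2 of 20 initiation genes (2.79 to 30.1%) and 4 of 19 synthetases (8.51 to 43.3%). The initiation genes were EIF4H and EIF5A, the latter placed there by its symbol. All 4 synthetases were among the 9 listed enzymes ending in 1 (44.4%, 18.9 to 73.3), while 0 of the 10 listed mitochondrial enzymes had a knockdown region (interval 0 to 27.8%). The last 2 intervals also overlapped, and the difference was not tested.

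By position, 9 of the 60 control regions (15.0%, 8.10 to 26.1) shared at least 1 bp with a knockdown region, beside 10.0% of all control regions. The overlapped regions, of which 3 belong to EEF1A1, had a median width of 2663 bp and the other 51 a median of 1600 bp. Over all control regions these medians were 1798 and 1558 bp. In the other direction, 10 of 13 regions in the knockdown shared bases with the control list (76.9%, 49.7 to 91.8), beside 69.0% of the whole knockdown list. The knockdown regions were narrower, with a median of 709 bp here and 727 bp over the list. Every one of the 10 overlapping regions lay wholly inside a control region except that of EIF5A, which shared 761 of its 766 bp.

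EIF5A had nearly the same region in the lists: the knockdown interval chr17:7306608-7307373 covered 72.1% of the control interval. At LARS1 the knockdown region of 709 bp spanned the start and covered 36.8% of the control region. At WARS1 it was 481 bp wide, began 1083 bp past the start and covered 13.9%. QARS1 kept 382 bp within its upstream control region, 14.3% of it, annotated to a 3' UTR and not to the promoter class. SARS1 kept 1359 bp at exon 4 of 12, 55.8% of the control region there, and the promoter region of SARS1 had no knockdown counterpart.

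The starts of 3 genes are shown because these promoters held a region in both lists. EEF2K and LARS1 also had a promoter region in each list but are not shown. No promoter sequence was available for LARS1, and the EEF2K knockdown region overlapped neither control region. Each printed sequence runs from 200 bases upstream to 30 bases downstream, with the first 30 transcribed bases in capitals. All 3 are from RefSeq on GRCh38.p14.
EEF1A1 (chr6:73521003-73521232, minus strand): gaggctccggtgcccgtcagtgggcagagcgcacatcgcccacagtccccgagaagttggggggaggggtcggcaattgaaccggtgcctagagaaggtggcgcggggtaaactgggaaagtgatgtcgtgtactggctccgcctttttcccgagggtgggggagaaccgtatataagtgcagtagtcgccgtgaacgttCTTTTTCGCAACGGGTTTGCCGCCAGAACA
EIF5A (chr17:7306799-7307028, plus strand): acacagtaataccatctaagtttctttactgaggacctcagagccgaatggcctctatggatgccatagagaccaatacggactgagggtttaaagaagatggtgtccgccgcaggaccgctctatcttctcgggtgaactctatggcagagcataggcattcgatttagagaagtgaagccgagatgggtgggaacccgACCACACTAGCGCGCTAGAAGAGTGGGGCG
WARS1 (chr14:100375318-100375547, minus strand): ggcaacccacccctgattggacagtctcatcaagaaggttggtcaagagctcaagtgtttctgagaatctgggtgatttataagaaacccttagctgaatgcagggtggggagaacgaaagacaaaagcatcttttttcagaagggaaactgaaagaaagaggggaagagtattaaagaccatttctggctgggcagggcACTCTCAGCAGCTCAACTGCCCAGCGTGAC
The EEF1A1 and EIF5A windows lie within regions of both lists; at WARS1 the knockdown region begins downstream of the printed bases.

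EEF1A1 carried the most regions of the set, 6 in control and 5 in the knockdown. In control, the widest spanned 4476 bp at the 3' end of the gene (chr6:73513004-73517479) and another 2724 bp across the start (chr6:73520606-73523329). Upstream followed regions of 2295, 2116, 3615 and 2811 bp, whose near edges lay 21605, 37332, 42827 and 56765 bp from the start. The knockdown list held parts of 3 of these regions: 2574 bp at the 3' end, 753 bp at the start (27.6% of the control region), and 704 and 718 bp inside the 3615-bp region. Control regions of 2295, 2116 and 2811 bp had no counterpart, and a knockdown region of 519 bp lay 4564 bp beyond the outermost of them. The peak numbers, which ran in genomic order, show that more was called than listed. Across the control span of 67604 bp replicate 1 had 11 peaks, of which 7 were in listed regions, and replicate 2 had 7, of which 6 were listed. RefSeq lists 50 pseudogenes of EEF1A1, and the treatment of reads that match several places is not given in the sources used here.

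SARS1 had 5 control regions over 30052 bp: 1153 and 2646 bp upstream, 2644 bp at the start, 2164 bp in intron 2 of 11 and 2434 bp at exon 4 of 12. Only the last was met by a knockdown region. A further 7 genes had 2 control regions (CARS2, EEF2K, EIF1B, EIF2S2, EIF4H, LARS2 and QARS1), and 35 had 1.

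**Figure D4:**
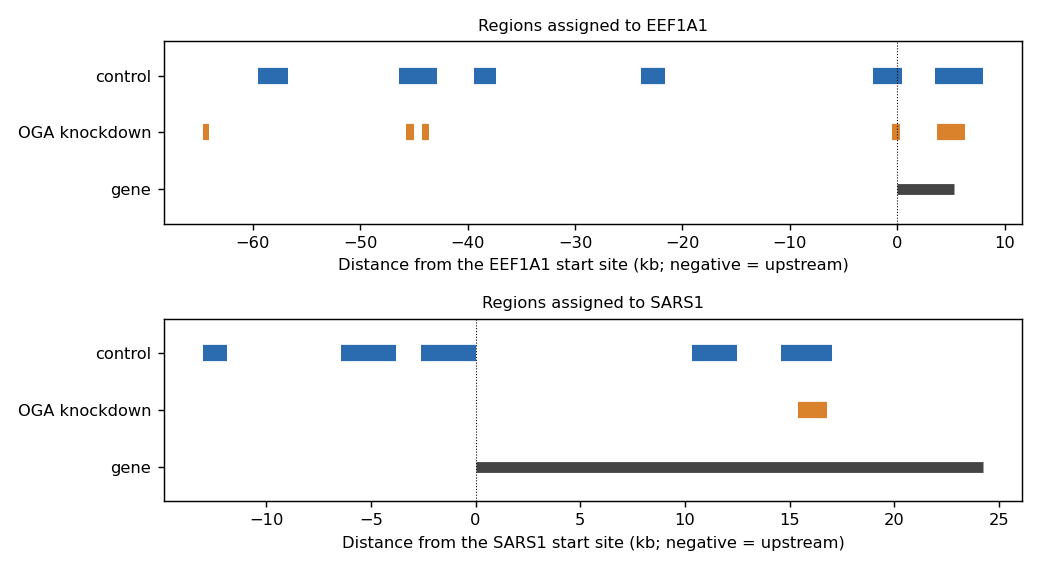
Regions assigned to EEF1A1 (top) and SARS1 (bottom) by distance from the start (kb, negative upstream), control in blue, OGA knockdown in orange, the gene body in grey. At EEF1A1, 4 of 5 knockdown bars sit under 3 of 6 control bars, and at SARS1 the only knockdown bar sits under the last control bar.

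Of the 3 knockdown regions with no control overlap, that of EEF1A1 is given above. At EEF2K, 585 bp ended 1157 bp upstream of the start, 1538 bp from the nearest control region. EIF4H, a cofactor of the eIF4A helicase, had 1290 bp in intron 1 of 6, and a control region of the same intron lay 980 bp away but was assigned to MIR590. The other EIF4H regions were distal, with 2186 and 1943 bp in control at 34390 and 20152 bp upstream, and 518 bp in the knockdown inside the former.

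Assignment by nearest start moved some regions off the genes that contain them. MARS1, the methionine enzyme, had no assigned region, yet control regions of 779, 2074 and 1921 bp lay inside it, at intron 7 of 20, exon 8 of 21 and exon 11 of 21, and were assigned to ARHGAP9 and MIR6758. The latter 2 overlapped knockdown regions of 674 and 806 bp. A further knockdown region of 848 bp, in intron 7 of 20 of MARS1, overlapped a control region other than these. Across the set, 7 control regions annotated to an intron or exon of EEF1G, EEF2K, EIF4H or MARS1 were counted for another gene. Regions inside these genes with another annotation class are not in this count.

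Promoter sequences were available for 84 of the 105 genes, as windows from 250 bases before to 50 after a start. Where RefSeq gave several starts, the first window of each gene was counted for composition and motifs. Head-to-head neighbours were sought from every start of the gene. Of the 77 with a CpG-type window (GC of at least 50% and a CpG ratio, observed over expected, of at least 0.6), 29 had a control promoter region (37.7%), beside a background of 19.4% for CpG-type promoters of all coding genes. Genes with and without a control promoter region had similar composition: median GC was 61.7% and 63.3%, and the median CpG ratio 0.895 and 0.869. By arrangement, of 27 genes whose start faced that of a neighbour within 1000 bp, head to head, 4 had a promoter region (14.8%; background 17.9%), while 27 of the 57 without such a neighbour had one (47.4%; background 15.4%). The 4 were EARS2, EIF2AK3, EIF4G2 and WARS1. A region between facing starts is assigned to the nearer one, and for 4 of the 23 head-to-head genes without a promoter region the partner had one. These were EIF2S1 (partner ATP6V1D), SARS2 (MRPS12), and EEF1AKMT4 with its readthrough EEF1AKMT4-ECE2, which both face ALG3. HARS1 and HARS2 face each other with starts 85 bp apart, and neither was listed.

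Many mRNAs of the translation apparatus begin with a C followed by a run of pyrimidines, the TOP motif through which mTOR and LARP1 control their translation. A start of C and at least 4 pyrimidines was found at 6 of 31 genes with a control promoter region (19.4%) and 7 of 53 without (13.2%), compared with 4.60% of all coding promoters. The 6 starts are printed because they include the major elongation factors; each runs from 30 bases upstream to 30 downstream, with the run in capitals (RefSeq, GRCh38.p14).
EEF1A1 (chr6:73521003-73521062, minus strand): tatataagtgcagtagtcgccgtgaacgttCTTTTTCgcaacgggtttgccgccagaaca
EEF2 (chr19:3985434-3985493, minus strand): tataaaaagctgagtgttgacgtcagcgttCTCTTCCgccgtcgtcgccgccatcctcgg
EIF3D (chr22:36529137-36529196, minus strand): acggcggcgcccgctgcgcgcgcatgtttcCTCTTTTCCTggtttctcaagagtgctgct
EIF3K (chr19:38619158-38619217, plus strand): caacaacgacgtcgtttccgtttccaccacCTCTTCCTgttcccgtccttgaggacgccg
EIF4B (chr12:53006426-53006485, plus strand): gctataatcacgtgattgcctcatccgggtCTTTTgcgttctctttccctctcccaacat
QARS1 (chr3:49104728-49104787, minus strand): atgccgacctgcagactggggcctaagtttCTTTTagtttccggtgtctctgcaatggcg
Of these 6 genes, EEF1A1 alone had a knockdown region at the promoter, and QARS1 had one upstream of it. In the first windows QARS1 was the only synthetase with such a start. A further start of WARS2, which also had a control promoter region and no knockdown region, met the same rule.

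When eIF2 is phosphorylated, ATF4 is translated and induces many cytosolic synthetase genes through C/EBP-ATF response elements. The element TGATGNAAN, searched on both strands, occurred in 6 of 14 windows of synthetases ending in 1 (42.9%), 1 of 14 ending in 2, and 0 of 47 initiation and 0 of 9 elongation windows, against 2.53% of all coding promoters. By occupancy it was in 3 of 31 windows with a control promoter region (9.68%) and 4 of 53 without (7.55%). In the first windows the matches at genes with a region were AARS1, CARS1 and YARS2, and further windows of GARS1 and of the initiation gene EIF4E3, not in these counts, also matched. All 5 are shown with the match in capitals and up to 30 bases on either side (RefSeq, GRCh38.p14); first-window matches without a promoter region were IARS1, MARS1, NARS1 and TARS1.
AARS1 (chr16:70289656-70289724, minus strand): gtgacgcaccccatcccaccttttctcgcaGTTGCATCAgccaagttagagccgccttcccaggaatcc
CARS1 (chr11:3057394-3057456, minus strand): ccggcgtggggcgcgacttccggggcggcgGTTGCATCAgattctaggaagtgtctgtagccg
YARS2 (chr12:32756056-32756124, minus strand): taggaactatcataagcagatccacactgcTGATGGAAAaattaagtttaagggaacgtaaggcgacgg
GARS1 (chr7:30594814-30594882, plus strand): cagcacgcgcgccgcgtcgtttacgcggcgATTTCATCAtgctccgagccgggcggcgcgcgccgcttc
EIF4E3 (chr3:71729093-71729161, minus strand): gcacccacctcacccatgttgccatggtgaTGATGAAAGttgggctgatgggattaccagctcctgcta
A match is a description of letters, not a bound site. None of the 5 genes had a knockdown region, but only 15.1% of all coding genes with a control region had one.

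Other motifs were also about as frequent with a control promoter region as without. The GC box GGGCGG was in 77.4% and 71.7% of windows (58.5% of all coding promoters), and the ETS element CCGGAAG in 29.0% and 35.8% (14.2%). The E-box CACGTG was in 19.4% and 24.5% (8.88%), the NRF1 element in 16.1% and 17.0% (8.57%), and the YY1 element AAGATGGCG in 9.68% and 7.55% (2.74%). Both strands were searched, and matches that overlap another motif were kept.

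Of 46 further genes of translation and its control, outside the symbol rule, 16 had a control promoter region (34.8%; background 14.9%), 23 any control region (background 21.7%) and 5 any knockdown region (10.9%; background 3.99%). The widest promoter regions were at DDIT3 (3184 bp), ATF5 (2638 bp) and ATF4 (2121 bp), transcription factors of the integrated stress response, and at GCN1 (2276 bp), the activator of the eIF2 kinase GCN2. The DDIT3 region overlapped a knockdown region that was assigned to another gene. Among downstream genes, ASNS, CHAC1 and PPP1R15A had no region. TRIB3 and SESN2 had 2 control regions each, with 0 at promoters, and 1 of the SESN2 regions overlapped a knockdown region. RPS6, a small-subunit protein, had 2 promoter regions of up to 2024 bp, and FARSB, the beta subunit of phenylalanyl-tRNA synthetase, 1850 bp. The 5 genes with a knockdown region were AIMP1, ETF1, GSPT1, MTOR and RPS6. GSPT1, the release factor eRF3, had a knockdown region over its control promoter region of 1735 bp, and MTOR a knockdown promoter region but a control region outside the promoter.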

How the data were processed

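OGA CUT&Tag was measured in 4 libraries of naive H9 cells, 2 control and 2 OGA knockdown, grouped by sample title. Per the submitters' processing notes the tools were ChIPseeker 1.12.1, SEACR 1.3, Bowtie2 2.3.4.3, edgeR and DESeq2, on GRCh38.p13; their roles are not stated. For each group the authors deposited an annotated region list; a line holds, per the file headers, the position, width in bp, annotation class, signed distance to the nearest start in bp, transcript, gene and the merged peaks of each replicate. A line repeated in the control list was used once, leaving 8977 regions of 8978 lines.

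The genes and gene lists were chosen with earlier results of these data known. Symbols were matched to RefSeq genes of GRCh38.p14 (20052 protein-coding), which also gave gene type, neighbours and promoter sequence; coordinates of regions are those of the deposited lists. EIF4EBP1 and EIF4EBP2 end in P and a digit but are coding, and were kept. Pseudogenes, 6 in the control list (10 regions) and 3 in the knockdown list (3 regions), were left out. Of 37 listed genes with a promoter sequence, 30 had a start equal to one in the lists. Overlap was at least 1 bp. Genes named with values were those with the widest control promoter regions in each role (up to 6), with a knockdown region or with more than 1 region; the others are given by their widths or as not listed. Some genes that the rule takes are counted but not reported by name here. CpG type, head-to-head starts, pyrimidine starts, peak numbers and regions inside genes were examined after seeing the data. A count test with edgeR was planned only if counts were given and was not run, since there were none. The overlap and motif steps were tested on simulated data. Software was matplotlib 3.10.9, scipy 1.17.1, pandas 2.3.3 and numpy 2.4.6 under Python 3.11.15.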

Additional observations from a re-analysis of the deposited data

How the results depend on the processing

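Of 52 values recomputed with another setting, 40 stayed close to those reported, for overlaps by the number of regions and not by the share. Keeping only regions of the control median width or more left 20 genes with a promoter region and 25 with any region in control, and 0 and 1 in the knockdown; 1 of 35 control regions was then overlapped, by the 1 knockdown region left. With as many control regions as knockdown regions, taking the widest, 9 genes had a promoter region and 10 any region, the median width became 2768 bp, and 6 of 16 control regions (37.5%) were overlapped in place of 15.0%. With centres within 500 bp in place of overlap, 5 of 60 control regions and 5 of 13 knockdown regions matched. With promoters within 1 kb, 3 genes had a knockdown promoter region in place of 5. The first pair of alternatives removes narrow regions by construction, and knockdown regions are the narrower. Keeping pseudogenes, leaving out every symbol ending in P and a digit, primary chromosomes, regions of at least 200 bp, coding genes only and overlap of 50% of the shorter region moved no count by over 1.5 times.

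No paired analysis was possible because each list merges both replicates and holds no value per library; for the same reason no replicate was left out. Depth is unknown, and a smaller knockdown list, a lower depth and another peak threshold cannot be told apart.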
